A study of Gallus gallus with 58 samples.

Results

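Interferon regulatory factors (IRFs) were examined in whole blood of newly hatched chicks given CpG-ODN 2007, a short synthetic DNA that engages the chicken receptor chTLR21. The family was taken as 7 named genes, IRF1, IRF2, IRF4, IRF5, IRF7, IRF8 and IRF10, and a gene was measured where a probe set carried its symbol alone. That held for 6 of the 7, each with 1 probe set, out of 11528 genes and 20804 probe sets. They are the probe sets 15426092 (IRF1, Entrez gene 396384), 15503647 (IRF2, 396115), 15514925 (IRF7, 396330), 15551701 (IRF5, 430409), 15417905 (IRF8, 396385) and 15452012 (IRF4, 374179). IRF10 had no probe set of its own and is described only through a pair of probe sets shared with a neighbouring gene.

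Chicks were injected on the day of hatch and bled 3 h later, on day 3 (D3) or on day 6 (D6), with different chicks at each time and 1 array for each chick. There were 10 CpG and 10 control (CTL) chicks at 3 h, 8 and 8 at D3, and 10 and 12 at D6, 58 in all. The labels used here do not state what the controls received, nor sex or hybridisation batch. Values are log2 RMA expression, on which a difference of 1 is a doubling.

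IRFs are transcription factors that share a tryptophan-rich DNA-binding domain and recognise response elements in interferon genes and in genes that interferon induces. Some members carry the signal from a pathogen sensor to the interferon genes, some act downstream of the interferon receptors, and IRF4 and IRF8 also direct blood cell development. Birds have no separate counterpart of mammalian IRF3, and in chickens IRF7 takes its place in interferon induction.

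The median correlation of arrays with others of their group was between 0.971 and 0.974 over the 6 groups, and 5 arrays stood apart, each below 0.965. These were CpG chick 20 and control chicks 86 and 92 at D3, CpG chick 31 at D6 and control chick 74 at 3 h. Blood identity was checked with marker lists, and all 10 erythroid markers had a mean above 6.26, the level under which 40% of probe set means lay. The same held for 9 of 11 heterophil, 10 of 12 thrombocyte and 8 of 12 T cell markers, but for 5 of 9 B cell and 1 of 4 plasma cell markers. IRF1, IRF2, IRF7 and IRF8 had means above those of 97.4%, 97.1%, 94.8% and 91.4% of probe sets, and IRF4 and IRF5 above 61.9% and 55.7%.

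**Figure D1:**
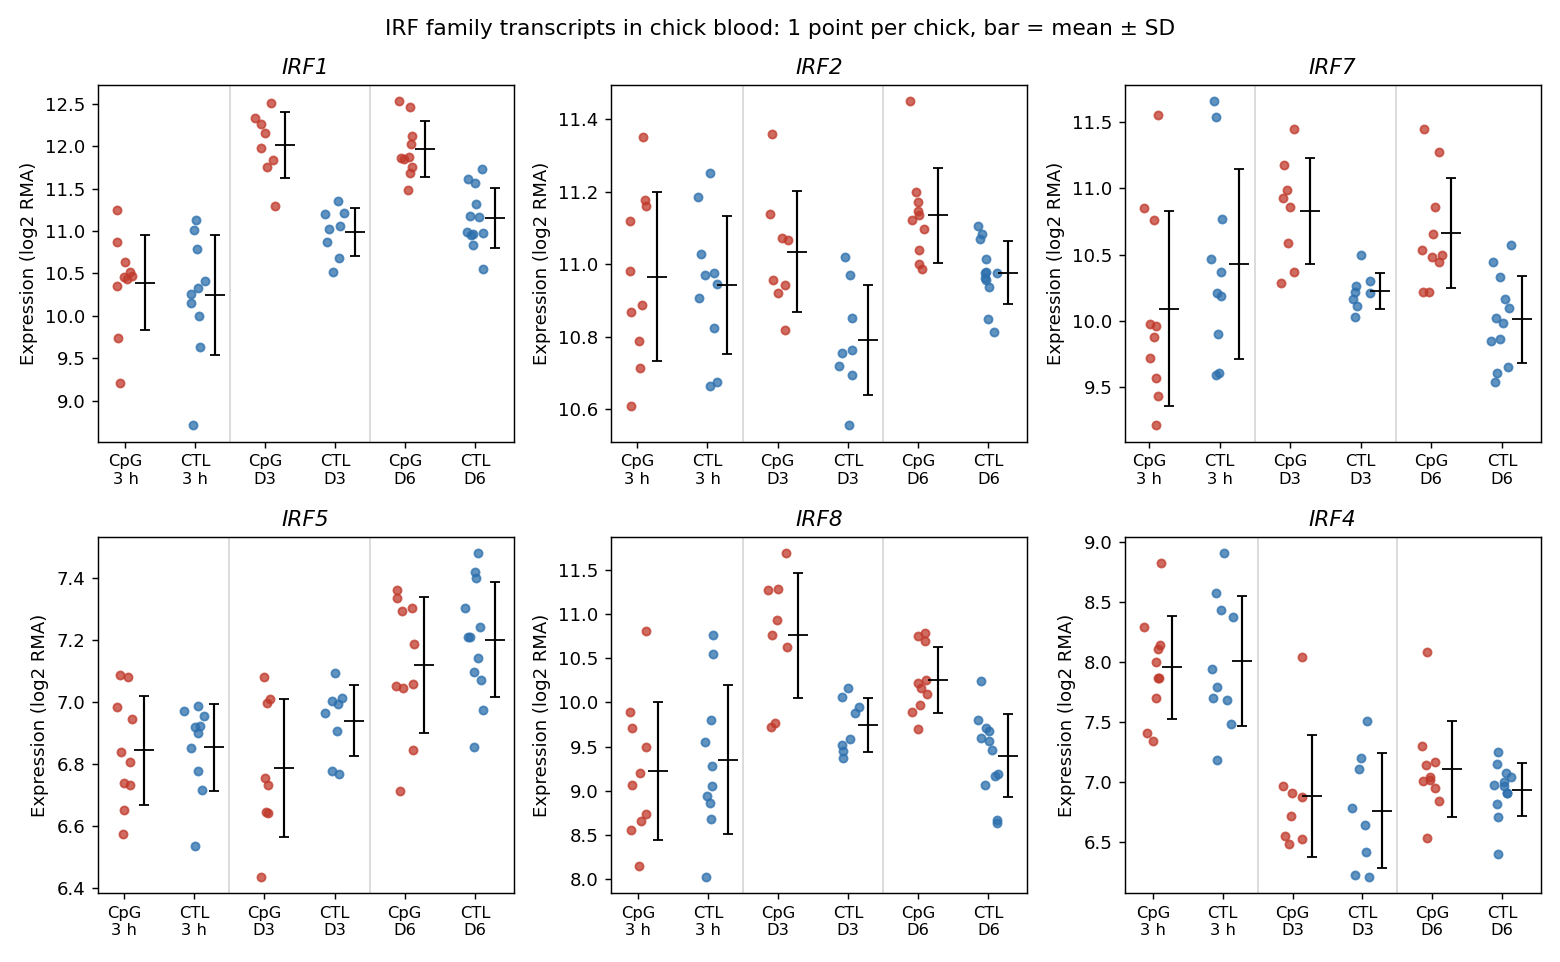
Log2 RMA expression (vertical axes, a separate scale for each gene) of the 6 measured IRF genes in CpG and control chicks at 3 h, D3 and D6. Points are chicks and bars show mean ± SD. IRF1 was at 11.29 or more in every CpG chick at D3 and D6, and IRF4 lay highest at 3 h in both treatments.

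The first question was whether CpG had changed the family's transcripts within 3 h. No member passed the test at this time, and neither did any other probe set (0% called by limma, with 1037 probe sets at an unadjusted p under 0.05). IRF1, which mediates much of the interferon gamma response, lay at 9.21, 10.46 and 11.24 (lowest, median and highest) in CpG chicks, against 8.71, 10.29 and 11.13 in controls. IRF7 lay at 9.21, 9.92 and 11.56 in CpG chicks, against 9.59, 10.29 and 11.66 in controls. The ranges of IRF1 overlapped almost fully, while for IRF7 3 of 10 CpG chicks lay below every control.

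IRF8 ranged from 8.16 to 10.81 in CpG chicks at 3 h and from 8.02 to 10.76 in controls. The differences, CpG minus control, were 0.15 ± 0.20 (log2, SE) for IRF1, -0.34 ± 0.22 for IRF7 and -0.12 ± 0.27 for IRF8. Their 95% intervals were -0.25 to 0.56, -0.78 to 0.10 and -0.66 to 0.41, so changes of those sizes are not excluded. The SE rests on 1 spread shared by the 6 groups, and the 3 h groups were wider. In CpG and control chicks at 3 h the SD was 0.56 and 0.71 for IRF1 and 0.74 and 0.72 for IRF7. For IRF8 it was 0.78 and 0.84. Within groups at all times the SDs were 0.46, 0.50 and 0.62 (root mean square, same order). These intervals may therefore be too narrow. IRF2, IRF4 and IRF5 differed by 0.02 ± 0.08, -0.05 ± 0.19 and -0.01 ± 0.08.

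IRF1 rose at D3 and at D6. At D3 it lay at 11.29, 12.07 and 12.51 in CpG chicks, against 10.52, 11.04 and 11.35 in controls. Of the 8 CpG chicks 7 were above every control, and chick 14 was the exception. The mean was 12.01 ± 0.39 in CpG chicks and 10.99 ± 0.28 in controls (SD, n = 8 each), a rise of 1.03 ± 0.23 (SE) or 2.04-fold (limma, adjusted p = 0.0191). Thus 1 of 6 members was called higher at D3, where 0.24% of all probe sets were, and 0 were called lower, beside 0.0721%. The call ended without control chick 87, the lowest control, at 0.96 (limma, adjusted p = 0.0606).

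At D6 IRF1 lay at 11.48, 11.87 and 12.53 in CpG chicks, against 10.55, 11.08 and 11.73 in controls. Of 10 CpG chicks 8 were above all 12 controls. The mean was 11.96 ± 0.33 in CpG chicks and 11.15 ± 0.35 in controls (SD, n = 10 and 12), a rise of 0.81 ± 0.19 or 1.75-fold (limma, adjusted p = 0.0133). Again 1 of 6 members was called higher, where 1.52% of all probe sets were, and the call held in all 22 refits that left out 1 chick. The change of the effect between D3 and D6 was -0.22 ± 0.30, with a 95% interval of -0.81 to 0.38.

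**Figure D2:**
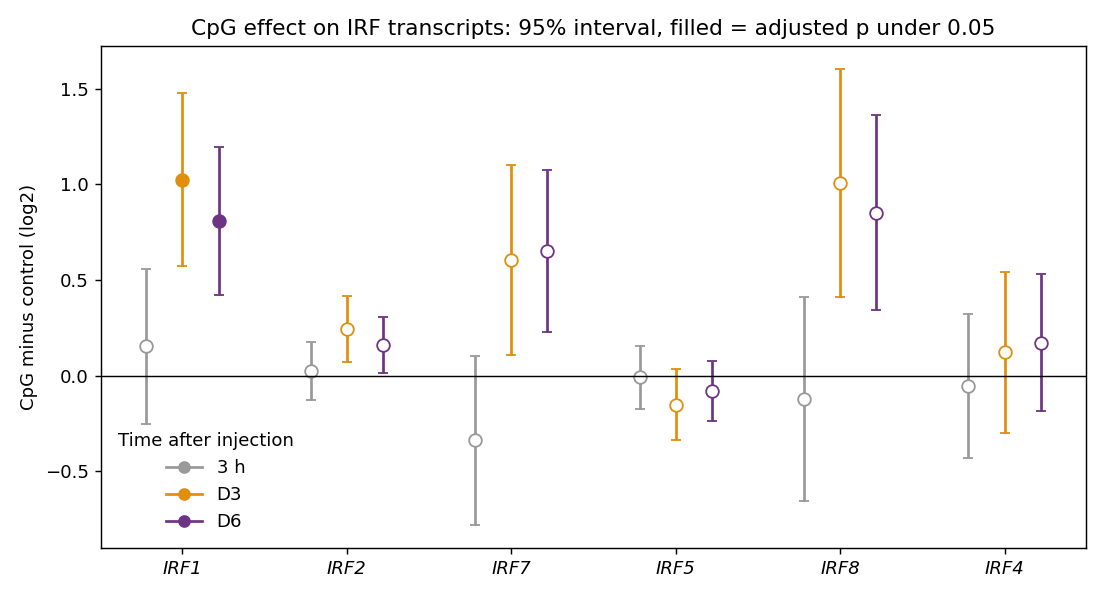
Difference between CpG and control chicks (log2, with 95% intervals from limma) for each IRF gene at 3 h, D3 and D6. IRF1 at D3 (1.03) and D6 (0.81) had an adjusted p under 0.05, and all intervals at 3 h span 0.

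IRF7, an inducer of type I interferon genes, was higher on average at D3 and D6 without passing the test. At D3 it lay at 10.29, 10.89 and 11.45 in CpG chicks, against 10.03, 10.21 and 10.50 in controls. All 8 CpG chicks were above the control median and 6 were above every control. The difference was 0.61 ± 0.25 (limma, adjusted p = 0.225).

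At D6 IRF7 lay at 10.22, 10.52 and 11.45 in CpG chicks, against 9.54, 10.00 and 10.57 in controls. All 10 CpG chicks were above the control median and 4 were above every control. The difference was 0.65 ± 0.21 (limma, adjusted p = 0.0898), and it passed in a fit of the D6 arrays alone (adjusted p = 0.0176). It passed in none of the 22 refits that left out 1 chick (limma, adjusted p from 0.073 to 0.168).

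IRF8, which in mammals directs cells to the monocyte and dendritic lineages and acts in B cells, had differences of a size like those of IRF1 with a wider spread. At D3 it lay at 9.72, 10.85 and 11.69 in CpG chicks, against 9.37, 9.73 and 10.17 in controls. Of the 8 CpG chicks 6 lay above every control, while chicks 14 and 18 (9.77 and 9.72) lay in the control range. The difference was 1.01 ± 0.30 (limma, adjusted p = 0.1).

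At D6 IRF8 lay at 9.69, 10.19 and 10.79 in CpG chicks, against 8.63, 9.51 and 10.24 in controls. All 10 CpG chicks were above the control median, and 9 of 12 controls were below every CpG chick. The difference was 0.85 ± 0.26 (limma, adjusted p = 0.0588). It passed in a fit of the D6 arrays alone (adjusted p = 0.00777), with array weights (0.0487) and with a filter on low means (0.0418). Of 22 refits that left out 1 chick it passed in 1, without control chick 102 (0.0381), and the adjusted p reached 0.111 in the others. It did not pass with the cell type scores, another prior or median centring, nor without the arrays that stood apart.

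IRF2, which in mammals competes with IRF1 for its sites, showed small differences. It lay at 10.82, 11.01 and 11.36 in CpG chicks at D3, against 10.56, 10.76 and 11.02 in controls. At D6 it lay at 10.99, 11.13 and 11.45 in CpG chicks, against 10.81, 10.98 and 11.11 in controls. Every CpG chick was above the control median at both times, 8 of 8 and 10 of 10, and the differences were 0.24 ± 0.09 and 0.16 ± 0.07 (limma, adjusted p = 0.166 and 0.306).

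IRF4, a factor of lymphocyte activation and plasma cells, differed by 0.12 ± 0.21 at D3 and 0.17 ± 0.18 at D6 (limma, adjusted p = 0.81 and 0.753). At D3 it lay at 6.48, 6.80 and 8.05 in CpG chicks, against 6.21, 6.71 and 7.51 in controls. The highest value came from CpG chick 20, with the next CpG chick at 6.97, and without the 5 arrays that stood apart the D3 difference was -0.01.

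IRF5, which in mammals acts below the adaptor MYD88, differed by -0.15 ± 0.09 at D3 and -0.08 ± 0.08 at D6 (limma, adjusted p = 0.42 and 0.738). At D3 it lay at 6.44, 6.74 and 7.08 in CpG chicks, against 6.77, 6.98 and 7.09 in controls, and 5 of 8 CpG chicks were below every control. At D6 the values ran from 6.71 to 7.36 in CpG chicks and from 6.86 to 7.48 in controls. The 95% intervals of the differences were -0.34 to 0.03 and -0.24 to 0.08.

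Over the 6 members the median difference was 0.42 at D3 and 0.41 at D6, with 5 of 6 above 0 each time, beside medians of -0.01 and -0.01 over 11528 genes, of which 47.2% and 45.9% were above 0. A change of the effect with time was tested as an interaction. From 3 h to D6 the effect grew by 0.99 ± 0.31 for IRF7, 0.98 ± 0.37 for IRF8 and 0.66 ± 0.28 for IRF1 (limma, adjusted p = 0.136, 0.276 and 0.395), and 0 of 6 members passed where 0.553% of probe sets were called higher and 0.0433% lower. From 3 h to D3 the changes were 0.94 ± 0.33, 1.13 ± 0.40 and 0.87 ± 0.30 in the same order (adjusted p = 0.458, 0.46 and 0.449), again with 0 of 6 called beside 0.00961% of probe sets. At an unadjusted p under 0.05 there were 3 members for each interval. Beside them stood 1451 of 20804 probe sets from 3 h to D3 and 1958 from 3 h to D6.

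IRF10 could not be measured on its own. The gene table lists its gene as IRF9 with IRF10 as a synonym, and the platform assigns it together with its neighbour FOXS1, a forkhead factor gene, to the probe sets 15467535 and 15467531. Probe set 15467535 lay at 7.74, 8.08 and 8.73 in CpG chicks at D6, against 7.39, 7.77 and 8.09 in controls, and 5 of 10 CpG chicks were above every control. It rose by 0.41 ± 0.12 (limma, adjusted p = 0.0476), while probe set 15467531 differed by -0.07 ± 0.10 (adjusted p = 0.844). At D3 the differences were 0.20 ± 0.14 for 15467535 and -0.32 ± 0.12 for 15467531 (limma, adjusted p = 0.497 and 0.187). For 15467531 at D3 5 of 8 CpG chicks were below every control. None of these values can be assigned to 1 of the genes.

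Marker genes of other blood cells moved at the same times. Of 11 measured heterophil markers 6 were called higher in CpG chicks than in controls at D3 and 4 at D6, with median differences of 1.00 and 0.65. At D3 the mean log2 level over that list ran from 7.89 to 9.38 in CpG chicks, against 7.12 to 8.01 in controls. At D6 it ran from 6.69 to 8.56 in CpG chicks, against 6.49 to 7.26 in controls. In whole blood, more cells of a type and more RNA per cell cannot be told apart.

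Of 10 monocyte and dendritic cell markers 1 was called higher in CpG chicks than in controls at D3 and 3 at D6 (LY86, SPI1 and TREM2). Over the whole list 5 of 10 were above 0 at D3 and 6 of 10 at D6, with median differences of 0.00 and 0.10. The list's mean level at D3 ran from 7.12 to 7.67 in CpG chicks, against 6.82 to 7.46 in controls. Its range at D6 was 6.95 to 7.45 in CpG chicks, against 6.78 to 7.05 in controls. No RMA value is 0, and the markers AvBD4, NCF4, TIMD4, MRC1 and FLT3 of these lists had means below 6.26. Of 12 thrombocyte markers 1 was called higher in CpG chicks at D3 and 5 at D6. Of 9 B cell, 12 T cell, 4 cytotoxic cell and 4 plasma cell markers 0 were called at either time. Of these lists 4, 4, 3 and 3 markers, in the same order, had means below 6.26, so the counts cannot show a lack of change. Of 10 erythroid markers, which stand for the main cells of chicken blood, 0 were called at D3 and 1 at D6, BPGM, an enzyme of red cell metabolism, which fell with a log2 difference of -0.81 ± 0.14 (limma, adjusted p = 0.00044). With 6 cell type scores as covariates the IRF1 difference was 1.12 ± 0.28 at D3 and 0.76 ± 0.24 at D6, no longer past the threshold (limma, adjusted p = 0.14 and 0.274). The part of cell composition in the IRF values was not tested beyond this.

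Several members differed between ages within a treatment. In CpG chicks IRF1 was higher at D3 than at 3 h by 1.62 ± 0.21 and at D6 by 1.57 ± 0.20 (limma, adjusted p = 1.28e-07 and 1.19e-08). The same steps in controls were 0.75 ± 0.21 and 0.91 ± 0.19 (adjusted p = 0.00644 and 9.7e-05). IRF4 fell with age, with log2 differences from 3 h of -1.07 ± 0.20 at D3 and -0.85 ± 0.19 at D6 in CpG chicks, against -1.25 ± 0.20 and -1.07 ± 0.18 in controls (limma, adjusted p of 0.000246 or less).

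IRF5 rose late, by 0.33 ± 0.09 from D3 to D6 in CpG chicks and by 0.26 ± 0.08 in controls (limma, adjusted p = 0.00482 and 0.0302). IRF8 was higher at D3 and at D6 than at 3 h in CpG chicks, by 1.53 ± 0.28 and 1.02 ± 0.27 (adjusted p = 4.51e-05 and 0.00155), and IRF7 by 0.74 ± 0.23 and 0.57 ± 0.22 (adjusted p = 0.0181 and 0.0311). The IRF7 steps did not pass in fits of the contrast's arrays alone (adjusted p = 0.0547 and 0.0637). In controls neither gene passed in any age step of the fit without covariates, with differences from 3 h to D6 of 0.05 ± 0.26 for IRF8 and -0.42 ± 0.21 for IRF7. The IRF8 step from 3 h to D3 in controls did pass with the 6 cell type scores as covariates. In that fit the IRF7 steps in controls from 3 h to D3 and to D6 turned positive without passing. With the 6 cell type scores as covariates, the calls of IRF5 ended, from D3 to D6 at 0.16 in CpG chicks and 0.10 in controls (adjusted p = 0.524 and 0.641), and so did that of IRF4 in controls from 3 h to D6 at -0.72 (adjusted p = 0.0636). That the age steps differ between treatments is the interaction given above, which 0 members passed.

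These counts stand on a high background. From 3 h to D3 in CpG chicks 3 of 6 members were called higher and 1 lower, where 9.68% and 9.74% of probe sets were, and from 3 h to D6 4 higher and 1 lower, where 24.1% and 20.5% were. In controls the counts were 1 higher and 1 lower at D3 (11.8% and 13% of probe sets) and 2 higher and 1 lower at D6 (26.2% and 21.7%). From D3 to D6 1 member was called higher in CpG chicks and 1 in controls, beside 14.8% and 6.76% of probe sets, and 0 were called lower, beside 12.3% and 7.95%.

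Cell markers also moved with age. From 3 h to D6 in CpG chicks 2 of 12 thrombocyte markers rose and 6 fell (median -0.24), 3 of 11 heterophil markers rose and 0 fell (0.04), and 9 of 12 T cell markers rose and 1 fell (0.42). In controls 1 of 12 thrombocyte markers rose and 8 fell (-0.87), 0 of 11 heterophil markers rose and 10 fell (-0.71), and 8 of 12 T cell markers rose and 2 fell (0.35). In this step 24.1% of all probe sets were called higher and 20.5% lower in CpG chicks, and 26.2% and 21.7% in controls. Beyond the fit with cell type scores, the part of these cells in the age steps was not tested.

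The order of the group means differed among the members. IRF1 was highest in CpG chicks at D3 and D6 (12.01 and 11.96), followed by controls at D6 and D3 (11.15 and 10.99) and by CpG and control chicks at 3 h (10.39 and 10.24). Within each of these pairs the means differed by less than the pooled SD. IRF8 had CpG chicks at D3 and D6 (10.76 and 10.25) beyond the pooled SD above the other 4 groups, which lay between 9.23 and 9.75 and did not separate. For IRF4 the 3 h groups (7.96 in CpG chicks and 8.01 in controls) stood above the rest, and for IRF2 and IRF7 no neighbours in the order were separated by more than their SD.

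Single chicks varied together in IRF1, IRF2, IRF7 and IRF8, and IRF4 and IRF5 did not pass with any of these. Each chick's deviation from its group mean was correlated for the 15 pairs of members over 58 chicks, with group labels kept in the permutations, and 7 pairs had an adjusted p under 0.05. The share of all gene pairs that would pass was not computed, so this count cannot be read as a trait of the family. Array quality and cell composition are shared by the genes of a chick, and their part was not tested. IRF7 and IRF8 varied most closely, with Pearson's r = 0.873 and Spearman's rho = 0.836 (permutation p = 1e-05, the smallest 100000 resamples can give, adjusted p = 5e-05 for each). Without the 2 farthest chicks r was 0.83, and within single groups it ran from 0.50 to 0.94. The 2 farthest chicks of a pair were chosen by the lower-numbered member alone, here IRF7, as those farthest from its median deviation.

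IRF1 varied with IRF8 (r = 0.784, rho = 0.709) and with IRF7 (r = 0.746, rho = 0.713), both with a permutation p of 1e-05 and an adjusted p of 5e-05. Without the 2 farthest chicks these were 0.744 and 0.741, and within single groups they ran from 0.46 to 0.90 and from 0.23 to 0.90. IRF2 followed IRF8 and IRF7 less closely (r = 0.551 and 0.535, rho = 0.498 and 0.46), with adjusted permutation p of 0.000262 and 0.00069 for r. Within groups these ran from -0.04 to 0.87 and from -0.15 to 0.90. The relation of IRF2 to IRF1 (r = 0.42, rho = 0.38) was 0.272 without the 2 farthest chicks and 0.612 without the 5 arrays that stood apart, and ran from -0.46 to 0.81 within groups. That of IRF4 to IRF5 (r = 0.314, rho = 0.31) fell to 0.209.

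**Figure D3:**
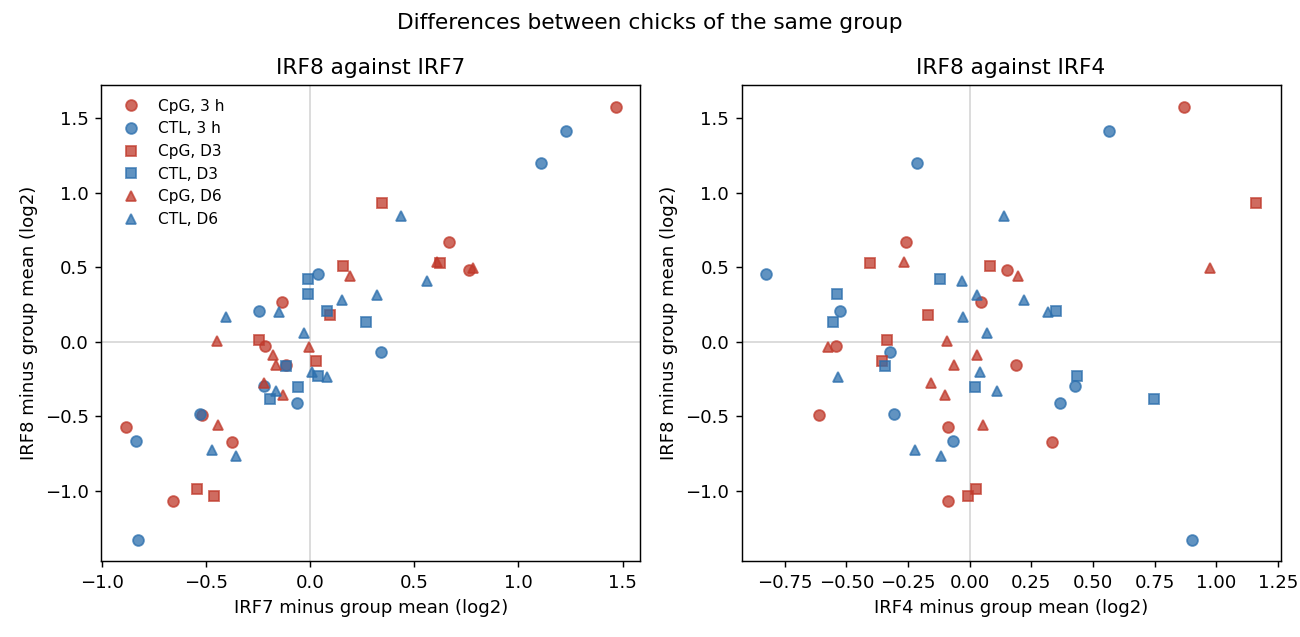
Deviation of each chick from its group mean (log2) for IRF8 against IRF7 (left) and against IRF4 (right), with CpG chicks in red, controls in blue and a marker shape for each time. IRF7 and IRF8 deviations rise together over the 58 chicks (r = 0.873), while those of IRF4 and IRF8 scatter (r = 0.124).

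At 3 h the same chicks stood at the ends of several genes. CpG chick 5 was the highest of its group for IRF1, IRF2, IRF4, IRF7 and IRF8, and control chicks 75 and 74 were the highest of theirs for IRF7 and IRF8. The lowest IRF1 and IRF8 values came from CpG chick 2 and control chick 73. At D3, CpG chick 14 was lowest for IRF1, IRF2 and IRF7.

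The genes most like each member were found over 58 arrays after the group means were subtracted, among 10435 genes. For IRF1 they were ZNFX1, GBP1 and DTX3L (r = 0.82, 0.81 and 0.80), for IRF7 NANP, MOV10 and IFI35 (0.89, 0.89 and 0.88), and for IRF8 CMTR1, ZNFX1 and ZC3HAV1 (0.90, 0.89 and 0.88). IRF2 had TRANK1, SMCHD1 and RP9 (0.80, 0.79 and 0.78). IRF5 had ARF5, NPTX2 and HSPB7 (0.74, 0.73 and 0.72), and IRF4 the lowest values, with DCLK3, S1PR4 and PSTPIP1 (0.65, 0.60 and 0.57). For these last 3 genes Spearman's rho was 0.48, 0.47 and 0.41. Without the arrays that stood apart their r with IRF4 was 0.53, 0.46 and 0.48. Each point is 1 array, so array quality and cell composition are shared by the genes compared, and the correlations are a description.

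The genes around the IRFs in the pathway were read from lists of ligands, receptors, sensors, partners and targets. At D3 1 of the 91 measured genes of these 8 lists was called, where 0.24% of all probe sets were called higher and 0.0721% lower. It was TAP2, the peptide transporter of MHC class I loading, which rose by 0.63 ± 0.14 (limma, adjusted p = 0.0153). At D6 1.52% of all probe sets were called higher and 0.591% lower. Each list gene that was called was higher in CpG chicks than in controls, and 0 were lower. A rise of a list gene here is this difference, not a change with age. SPI1, the PU.1 factor that binds DNA with IRF4 and IRF8 and is also on the monocyte list, had a mean of 8.58 ± 0.57 in CpG chicks and 7.27 ± 0.33 in controls. It was higher in CpG chicks by 1.31 ± 0.21 (limma, adjusted p = 0.000235), with 9 of 10 above every control, and was 1 of 11 partners called. From 3 h to D6 SPI1 fell in controls, with a log2 difference of -1.59 ± 0.21 (limma, adjusted p = 1.3e-08). In CpG chicks the same step was -0.20 ± 0.22 (adjusted p = 0.466).

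Upstream, TLR7, an endosomal receptor for single-stranded RNA, had a mean of 6.90 ± 0.53 in CpG chicks and 5.98 ± 0.35 in controls (SD). It rose by 0.92 ± 0.17 (limma, adjusted p = 0.000991) and was 1 of 17 sensors, adaptors and kinases. The CpG receptor chTLR21 and the adaptor MYD88 were not among the 17 measured genes. Of 3 interferon ligands and 4 interferon receptors 0 were called. The ligand list held 10 names, of which 3 were measured. IFNG and IFNL3A had means of 3.09 and 5.65, below the level of 6.26, and IFNW1 had a mean of 7.12. The ligand count therefore cannot show whether interferon transcripts changed. STAT3, a transcription factor of cytokine signalling, rose by 0.50 ± 0.13 (adjusted p = 0.0285) as 1 of 6 JAK and STAT genes. Of 11 negative regulators 2 were called higher at D6 in treated chicks than in controls. PTPN6, a phosphatase, differed by 0.95 ± 0.20 and SOCS1, an inhibitor of JAK kinases, by 1.07 ± 0.28 (limma, adjusted p = 0.00378 and 0.0263). With age, from 3 h to D6, the steps of this list ran from -0.53 to 0.30 in CpG chicks, with 0 genes called higher and 3 lower. Among controls they ran from -1.41 to 0.46, with 1 called higher and 4 lower. Of all probe sets 24.1% were called higher and 20.5% lower in this step in CpG chicks, and 26.2% and 21.7% in controls. How far the PTPN6 and SOCS1 differences rest on a fall in controls was not tested.

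Of 28 interferon-induced targets 3 rose at D6. MX1, an antiviral GTPase, lay at 9.19, 10.11 and 10.92 in CpG chicks, against 6.04, 7.52 and 9.93 in controls, and 6 of 10 CpG chicks were above every control. It rose by 2.25 ± 0.47 (limma, adjusted p = 0.00384), DDX60, an antiviral helicase, by 2.10 ± 0.44 (0.00377) and ADAR, an RNA editing enzyme, by 0.41 ± 0.12 (0.0442). The list's median difference was -0.10 at 3 h, 0.53 at D3 and 0.65 at D6, with 6, 24 and 24 of 28 above 0. For MX1 the effect changed from 3 h to D6 by 2.88 ± 0.68 (adjusted p = 0.0289). Of 11 MHC presentation genes 5 rose, with CTSS, a lysosomal protease, at 0.73 ± 0.13, TAP2 at 0.61 ± 0.12, B2M, the light chain of class I, at 0.39 ± 0.08 and BF2, a class I heavy chain, at 0.68 ± 0.18 (adjusted p = 0.000734, 0.0012, 0.00389 and 0.0249).

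**Figure D4:**
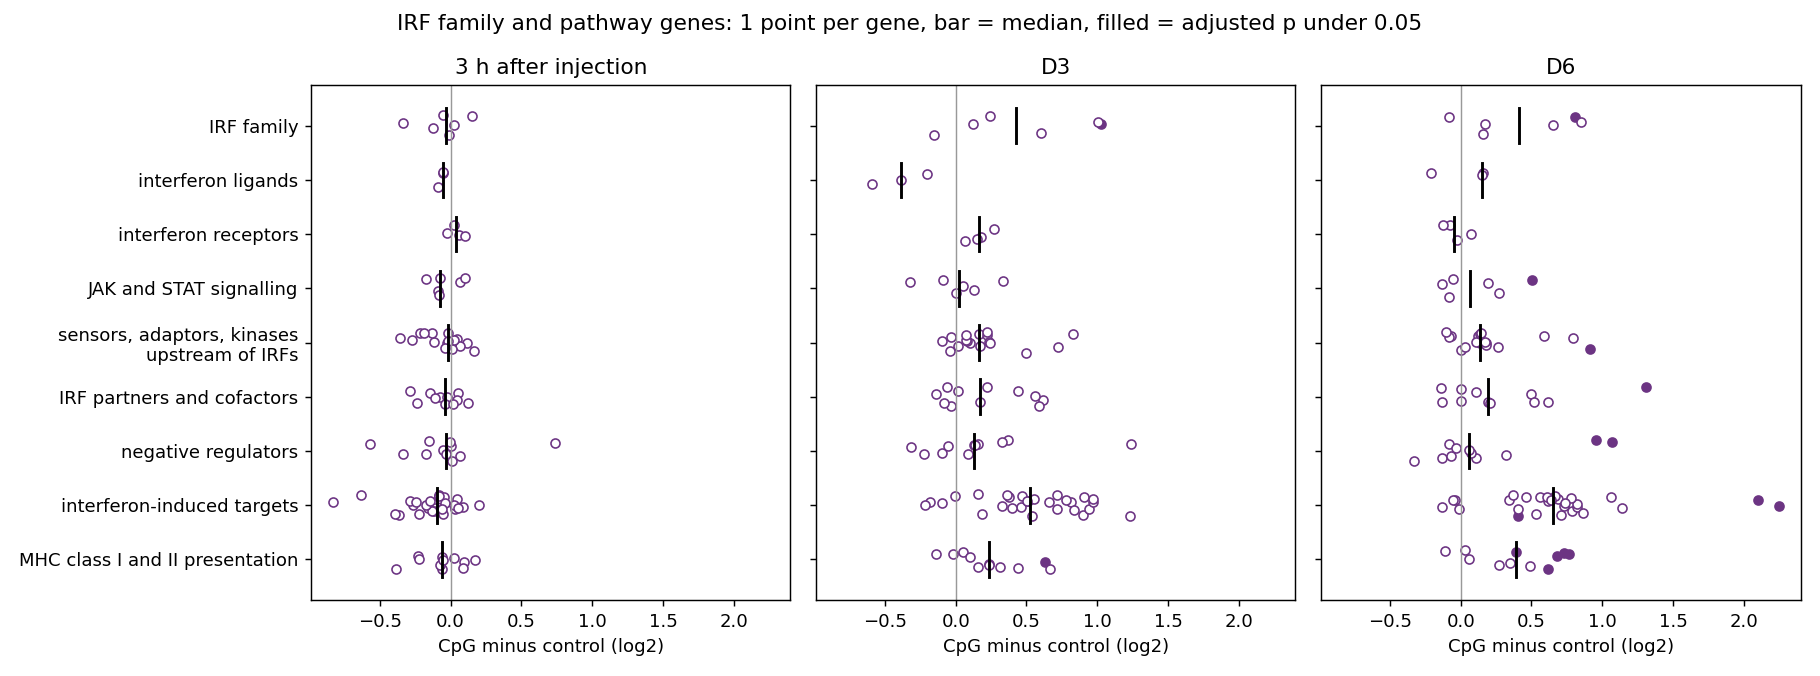
Difference between CpG and control chicks (log2, horizontal axes) for the IRF family and the genes of each pathway list at 3 h, D3 and D6, with a point for each gene, a bar at the median and filled points for an adjusted p under 0.05. Interferon-induced targets have a median of 0.65 at D6 and of -0.10 at 3 h.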

How the data were processed

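Whole blood of 58 chicks was measured on 1 array each. The authors deposited log2 expression values, made by RMA per the submitters' processing notes, which normalizes between arrays and sums probes into probe sets. These were used without further scaling. Of 20804 probe sets 12300 carried 1 gene symbol, 256 several and 8248 none, and 11727 of the first matched the gene table by Entrez number. A gene with several probe sets was read from the one of highest mean.

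Groups came from the labels. All 58 arrays were fitted in limma 3.58.1 (R 4.3.3) with 1 mean per group and 12 contrasts, with 52 residual and 4.17 prior degrees of freedom, and p-values were adjusted by Benjamini-Hochberg over 20804 probe sets (threshold 0.05). The fit and the permutation test were tested on simulated data. Alternatives were other scalings, a filter on low means, array weights, another prior, fits of single contrasts, cell type scores as covariates and leaving out chicks. Array data give no read depth, and the number of chicks limits the precision. Named genes were the members, up to 4 called genes of each pathway list at D6 and 2 at D3, the 3 most like each member, MX1 and SPI1. The members, lists and tests were chosen with earlier results of these data known.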

Additional observations from a re-analysis of the deposited data

Results flagged for a closer look

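A chick far from the rest of its group was sought in 40 groups of values, of which chance flags about 1 in 20. The limits used did not extend to a group of 12, so the controls at D6 were not searched. IRF4 was at 8.05 in CpG chick 20 at D3, with the next chick at 6.97. CpG chick 31 at D6 had 8.08 for IRF4, with the next at 7.30, and 11.45 for IRF2, with the next at 11.20. The arrays of chicks 20 and 31 are among the 5 that stood apart from their groups. The effect of CpG on probe set 15467535, shared by IRF9 and FOXS1, differed between 3 h and D6, by 0.72 ± 0.17 (limma interaction, adjusted p = 0.0289), with -0.31 ± 0.12 at 3 h and 0.41 ± 0.12 at D6.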

How the results depend on the processing

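No paired analysis was possible because the groups share no chick numbers, and no other probe sets could be tried, since each member has 1. Of the values of single members under 8 alternatives, 530 kept direction and side of the threshold, 10 passed only under the alternative, 10 no longer passed and 26 turned sign. The number of members called was 0 at D3 with 6 cell type scores as covariates, beside 1, and 0 to 1 when 1 chick was left out. At D6 it was 2 with the filter on low means, 2 with array weights, 3 in a fit of the contrast's arrays alone and 0 with the scores, beside 1, and 1 to 2 when 1 chick was left out. It was 2 for controls at D6 against D3 after repeated quantile normalization and 0 for CpG chicks at D6 against D3 with the scores, beside 1 each. The cause was not tested. The fit of the contrast's arrays alone uses fewer samples and takes the spread from those groups only. For IRF7 the SD was 0.41 in CpG chicks and 0.33 in controls at D6, against 0.74 and 0.72 at 3 h. That of IRF8 was 0.38 and 0.47 at D6, against 0.78 and 0.84 at 3 h. The call of IRF1 held without the arrays that stood apart, an alternative chosen after seeing the data, at 1.03 (adjusted p = 0.0407) at D3 and 0.86 (0.00623) at D6. The age step of IRF7 from 3 h to D6 in CpG chicks did not, at 0.48 (0.0621). Of the calls lost, 7 were lost with the scores, namely the IRF1 effect at D3 (1.12) and D6 (0.76), the IRF5 steps from D3 to D6 (0.16 in CpG chicks and 0.10 in controls) and from 3 h to D6 (0.20 and 0.21), and the IRF4 step from 3 h to D6 in controls (-0.72). Another 2 were lost in fits of the contrast's arrays alone, the IRF7 steps in CpG chicks from 3 h to D3 (adjusted p = 0.0547) and to D6 (0.0637). With the scores 4 were gained, the IRF2 steps from 3 h to D6 in CpG chicks (0.37) and controls (0.35) and from D3 to D6 in controls (0.31), and the IRF8 step from 3 h to D3 in controls (1.23). Values that turned sign, none of them called in either fit, were as follows. With array weights, they were 0.0387 for IRF8 (CpG effect at 3 h), -0.0104 for IRF4 (change of the CpG effect from D3 to D6), -0.0221 for IRF7 (change of the CpG effect from D3 to D6). With repeated quantile normalization, they were -0.0036 for IRF2 (CpG effect at 3 h), 0.0074 for IRF5 (CpG effect at 3 h), 0.0007 for IRF1 (CpG at D6 against CpG at D3). With median centring, they were 0.0056 for IRF5 (CpG effect at 3 h). With 6 cell type scores as covariates, they were 0.2587 for IRF4 (CpG effect at 3 h), 0.0632 for IRF5 (CpG effect at 3 h), 0.0585 for IRF7 (CpG effect at 3 h), 0.2792 for IRF8 (CpG effect at 3 h), -0.0958 for IRF4 (CpG effect at D6), 0.0512 for IRF5 (CpG effect at D6), -0.1823 for IRF4 (change of the CpG effect from 3 h to D3), -0.3545 for IRF4 (change of the CpG effect from 3 h to D6), -0.1722 for IRF4 (change of the CpG effect from D3 to D6), -0.1819 for IRF7 (change of the CpG effect from D3 to D6), 0.0336 for IRF2 (CTL at D3 against CTL at 3 h), 0.5221 for IRF7 (CTL at D3 against CTL at 3 h), 0.2902 for IRF7 (CTL at D6 against CTL at 3 h), 0.0405 for IRF5 (CpG at D3 against CpG at 3 h). Without the arrays that stood apart, they were -0.0077 for IRF2 (CpG effect at 3 h), 0.0016 for IRF5 (CpG effect at 3 h), 0.0083 for IRF8 (CpG effect at 3 h), -0.0080 for IRF4 (CpG effect at D3), 0.0735 for IRF1 (CpG at D6 against CpG at D3). With 1 chick left out, the ranges that spanned 0 were -0.0177 to 0.2836 for IRF1 (CpG effect at 3 h), -0.0198 to 0.0627 for IRF2 (CpG effect at 3 h), -0.1499 to 0.0469 for IRF4 (CpG effect at 3 h), -0.0432 to 0.2295 for IRF4 (CpG effect at D3), -0.0451 to 0.0200 for IRF5 (CpG effect at 3 h), -0.3000 to 0.0323 for IRF8 (CpG effect at 3 h). The median of all probe sets moved by at most 0.08 under another scaling. IRF4 and IRF5 have levels near the median probe set, and signal over background is not given in the table.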
